A study of Mus musculus with 6 samples.

Results

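The CAP family takes its name from cysteine-rich secretory proteins, antigen 5 and pathogenesis-related protein 1. Its proteins share a compact, disulphide-rich fold, and most of them carry a signal peptide and leave the cell. Glipr1 was first studied in glioma and in prostate cancer, where it is known as a target of p53, and it is expressed in monocytes and macrophages. Glipr2, also called GAPR-1, has no signal peptide and sits on the cytoplasmic face of the Golgi membrane. Crispld1 and Crispld2 carry LCCL domains, Crispld2 is a glucocorticoid-responsive secreted protein that can bind lipopolysaccharide (LPS), and Pi15 and Pi16 were named as peptidase inhibitors.

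The members are 6 genes, Glipr1, Glipr2, Pi15, Pi16, Crispld1 and Crispld2, taken by symbol from the 55401 genes of the deposited expression table, and all 6 were found. The set was chosen by the measured Glipr1 difference between the 2 groups of this study, with the other members added as its family, so the contrast between the groups is described for the members with no p-value, and whether the fit across all genes called them is given as a description only. Values come from 6 libraries of polyadenylated RNA from cultured mesenchymal stromal cells, which are plastic-adherent connective tissue cells flushed from the femoral marrow of C57/B6J mice. The groups were 3 wild-type (WT) libraries and 3 NLRP3-/- (knockout) libraries, and all 6 cultures had received 3 µg/mL LPS for 24 h. NLRP3 is the sensor of an inflammasome that activates caspase-1. The sources used here do not say how the knockout allele was made, nor whether the 3 libraries of a group came from separate animals or cultures, so errors and adjusted p-values cover only library-to-library spread, possibly of technical origin. The titles number the libraries of each genotype as day 1, 2 and 3, whereas another label gives day 1 for all 6. Unstimulated cultures were not analysed here, so no value below is a response to LPS.

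Levels are given as FPKM, the fragments scaled by gene length and by library depth, so they can be compared between genes. Each difference is the knockout mean less the WT mean of log2(FPKM + 1), a scale that compresses the changes of genes near 0, and a gene was tested when it reached 1 FPKM in at least 3 of the 6 libraries. Nlrp3 itself, the check of the labels, was at 2.76, 1.68 and 1.86 FPKM in the WT libraries and at 0 in every knockout library. The libraries held 13.3 to 16.6 M fragments each, estimated from the deposited counts, and no library stood apart, with correlations of 0.973 to 0.985 within a genotype and 0.943 to 0.952 across genotypes. The fit described below called 10.4% of all tested genes higher and 9.2% lower in the knockout libraries. Of 20 macrophage markers, 15 were tested and all 15 rose in the knockout libraries, with a median difference of 1.26. Their summed level was 640 to 729 FPKM in WT and 1565 to 1770 FPKM in knockout libraries, and none of the 20 was at 0 in all libraries. Adgre1, a macrophage adhesion G protein-coupled receptor, rose from 44.0 ± 2.71 to 134 ± 2.78 FPKM (SD, n = 3 each; adjusted p = 2.9e-05), Cd68 from 13.3 to 18.9 (adjusted p = 0.00823) and the receptor Csf1r from 6.67 to 17.7 (adjusted p = 4.72e-05). Ptprc, the pan-leukocyte marker CD45, was below the test filter at 0.303 and 0.843. Of 17 tested stromal markers, 11 fell and 4 rose (median -0.45). Among them were Thy1, which fell from 134 to 11.8 FPKM (adjusted p = 3.75e-06), Pdgfra, from 30.2 to 2.96 (adjusted p = 3.75e-06), Eng, from 35 to 12.4 (adjusted p = 0.00011), and Ly6a, from 188 to 46.1 (adjusted p = 0.00212). Those that rose included Nt5e, the gene of the stromal marker CD73, from 0.183 to 2.35 FPKM (adjusted p = 0.000131), Nes, from 11.1 to 33.7 (adjusted p = 2.42e-05), and Twist1, from 11.6 to 19.3 (adjusted p = 0.00134). In bulk RNA a different number of cells of one type and a different amount of RNA per cell cannot be told apart, and the part of these marker shifts in the values below was not tested.

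Glipr1 (ENSMUSG00000056888; GRCm38 chromosome 10, 111985448 to 112002631, minus strand) was a low gene in the WT cultures and one of the more abundant genes in the knockout cultures. It stood at 2.94, 2.83 and 3.79 FPKM in WT libraries 1 to 3 and at 94.42, 78.35 and 88.38 FPKM in knockout libraries 1 to 3. Each knockout library was above each WT library, and the knockout values varied among themselves by far less than the gap between the groups. The means were 3.19 ± 0.525 and 87.0 ± 8.12 FPKM (SD, n = 3 each), a 27.3-fold ratio of means and a log2 difference of 4.4 ± 0.11 (SE). By mean FPKM, Glipr1 ranked 8529th among all genes of the table in WT and 482nd in knockout libraries. Of the 12136 tested genes, 0.033% had a larger absolute difference on this log2(FPKM + 1) scale. The values rested on 297, 322 and 345 deposited estimated counts in WT and on 10273, 7805 and 8953 in knockout libraries, about 241 and 6758 fragments per group.

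**Figure D1:**
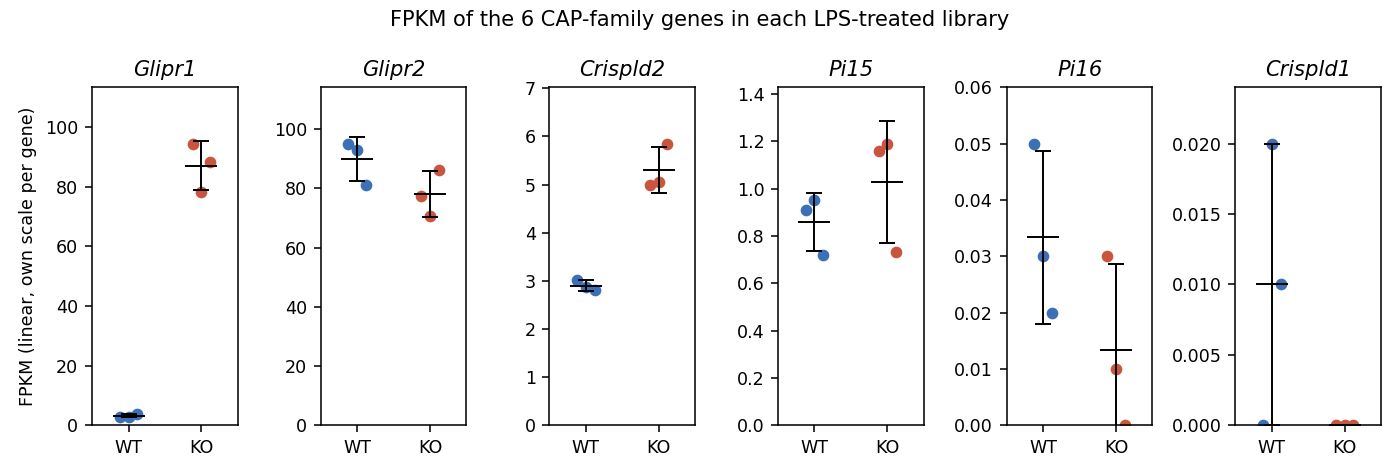
Level in FPKM (linear axis, own scale for each gene) of the 6 CAP-family genes; points are the 3 WT (blue) and 3 knockout (red) libraries, with the mean and 1 SD (lower ends cut at 0). Glipr1 points lie at 2.83 to 3.79 FPKM in WT and 78.35 to 94.42 in knockout libraries, Crispld2 points are apart by less, and the points of the other 4 genes overlap.

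Part of the Glipr1 transcript is not unique to it. The longest coding transcript has 7 exons and 1183 bases in GENCODE M21, and 19.0% of its 50-base words also occur in transcripts of other genes. Matches on either strand were counted, so this share and the exon overlap given next are not separate. On the opposite strand, exons of Krr1, which encodes a factor of small ribosomal subunit assembly, cover 352 of the 1543 exonic bases of Glipr1 (22.8%). Krr1 stood at 3.47, 4.02 and 4.34 FPKM in WT and at 8.93, 8.49 and 5.27 FPKM in knockout libraries, with the highest Krr1 value in the knockout library where Glipr1 was also highest, and the lowest in a library where Glipr1 was at 88.38. Whether the counting used the strand is not given in the sources used here, and without strand the reads of the shared bases cannot be told apart. The mean Krr1 level in the knockout libraries was 7.56 FPKM beside 87.0 for Glipr1.

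Glipr2 (ENSMUSG00000028480; chromosome 4, 43957401 to 43979118, plus strand), the Golgi-bound member that binds beclin 1 and caveolin-1, was the most abundant of the 6 in WT cultures. It stood at 95.1, 93.02 and 81.28 FPKM in WT and at 77.28, 70.82 and 86.32 FPKM in knockout libraries, and the ranges of the groups overlapped. The means were 89.8 ± 7.45 and 78.1 ± 7.79 FPKM, with a log2 difference of -0.2 ± 0.1 (SE). Of the tested genes, 43.9% had a larger absolute difference. None of the 50-base words of Glipr2 transcripts was shared with another gene and no annotated gene overlapped it.

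Crispld2 (ENSMUSG00000031825; chromosome 8, 119992438 to 120052793, plus strand), the LCCL-domain member that can bind LPS, was a low gene in both groups. It stood at 3.02, 2.88 and 2.8 FPKM in WT and at 5.0, 5.06 and 5.85 FPKM in knockout libraries, without overlap. The means were 2.9 ± 0.111 and 5.3 ± 0.474 FPKM, a 1.83-fold ratio and a log2 difference of 0.69 ± 0.08 (SE), and 9.08% of tested genes had a larger absolute difference. None of its 50-base words was shared with another gene, and Gm20388, a gene model over the same locus, was at 0 in all libraries.

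The promoter of Crispld2 is shown because it is the member, of the 3 with a promoter entry, whose level differed without overlap. The 250 bases before its start, chr8:119992188-119992437 on the plus strand of GRCm38.p6 (RefSeq), are printed 5′ to 3′, with the matches to searched motifs in capitals.
Crispld2: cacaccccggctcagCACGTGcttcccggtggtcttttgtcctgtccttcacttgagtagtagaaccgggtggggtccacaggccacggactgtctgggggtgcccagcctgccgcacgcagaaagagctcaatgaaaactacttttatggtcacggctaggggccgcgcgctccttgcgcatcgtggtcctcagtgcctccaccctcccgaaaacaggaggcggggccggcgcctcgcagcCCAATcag
The E-box CACGTG had 1 match, which begins 235 bases before the start, and 6.02% of the 32817 windows of the same length held one on either strand. The CCAAT box had 1 match, 8 bases before the start, and 33.8% of windows held one. The other motifs searched on both strands had no match in this window: TATAAA (in 12.4% of windows), GGGCGG (32.7%), the AP-1 site TGANTCA (6.75%), 1 consensus site of NF-κB (0.14%) and 1 palindromic consensus site of the glucocorticoid receptor (0.00914%). None of these motifs overlaps another in the window, and a match is a description of letters, not of binding.

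The remaining members were at or below about 1 FPKM. Pi15 (ENSMUSG00000067780; chromosome 1, 17601901 to 17630939, plus strand), known as a trypsin inhibitor, stood at 0.91, 0.95 and 0.72 FPKM in WT and at 1.16, 1.19 and 0.73 FPKM in knockout libraries. It reached 1 FPKM in 2 libraries and was not tested, and its ranges overlapped. Pi16 (ENSMUSG00000024011; chromosome 17, 29317680 to 29330593, plus strand), which marks a fibroblast population of the adventitia and fascia, was at 0.05, 0.03 and 0.02 FPKM in WT and at 0.03, 0.01 and 0 in knockout libraries. These values came from 47 and 20 estimated counts per group, about 12 and 5 fragments, and a difference of this size was not detectable at this depth. Crispld1 (ENSMUSG00000025776; chromosome 1, 17727045 to 17765575 in the deposited table, plus strand), the paralogue of Crispld2, had 0, 7 and 4 estimated counts in WT libraries and 0 in all knockout libraries, too few for a ratio.

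Set against all tested genes, 3 of the 6 members entered the fit, Glipr1, Glipr2 and Crispld2. The limma fit across all 12136 tested genes (Benjamini-Hochberg adjusted p under 0.05) called 19.6% of them, 10.4% higher and 9.2% lower in the knockout libraries, and it called Glipr1 and Crispld2 higher and did not call Glipr2. The ranges of the groups did not overlap for Glipr1 and Crispld2, as for 36.7% of tested genes. Since the same contrast chose Glipr1, nothing is read from these counts. The median difference over all tested genes was 0.01 and the median absolute difference 0.17. By signed difference, from high to low, Glipr1 ranked 3rd, Crispld2 611th and Glipr2 9546th of the 12136. These ranks hold on the log2(FPKM + 1) scale only. Some genes ranked below Glipr1 had a larger ratio of means, such as Angptl7 (36.4-fold, difference 4.03) beside 27.3-fold for Glipr1.

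**Figure D2:**
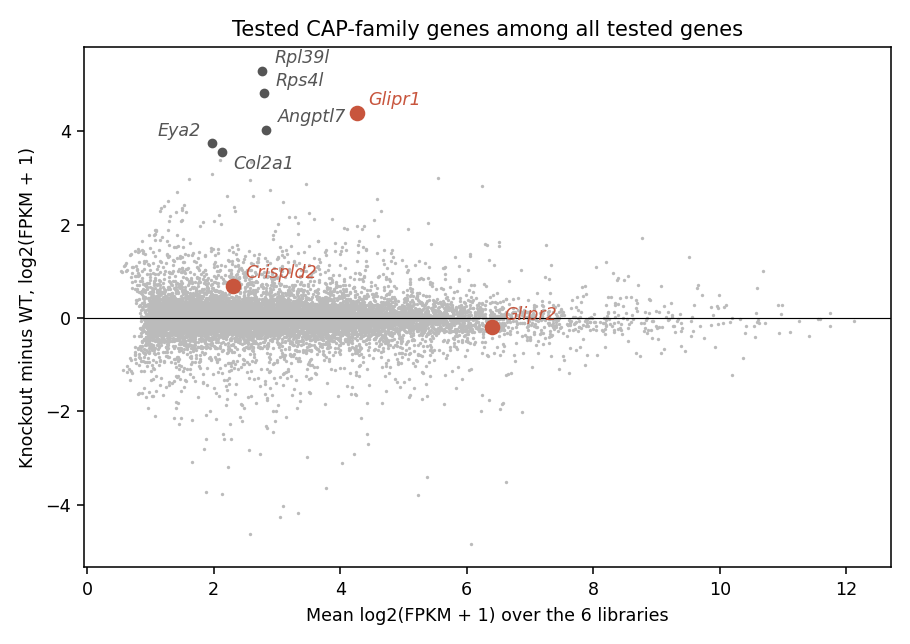
Log2(FPKM + 1) difference, knockout minus WT, of each of the 12136 tested genes (grey) against its mean log2(FPKM + 1) over the 6 libraries; red points are the tested CAP-family genes and dark points the 5 genes with the pattern most like that of Glipr1. Glipr1 stands at 4.4, Crispld2 at 0.69 and Glipr2 at -0.2.

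The order of levels within the family differed between the genotypes in the place of Glipr1, and the order of the other members was the same. In WT libraries Glipr2 was first, Glipr1 and Crispld2 followed with overlapping ranges, then came Pi15, and Pi16 and Crispld1 were last with overlapping ranges. In knockout libraries Glipr1 and Glipr2 shared the first place with overlapping ranges, followed by Crispld2, Pi15 and the pair of Pi16 and Crispld1. The ratio of Glipr1 to Glipr2 was 0.0309, 0.0304 and 0.0466 in WT and 1.22, 1.11 and 1.02 in knockout libraries. The summed level of the 6 genes was 96.8 ± 7.17 FPKM in WT and 172 ± 14.0 FPKM in knockout libraries (SD, n = 3 each). Without Glipr1 it was 93.6 ± 7.68 and 84.5 ± 7.96 FPKM. Glipr1 made up 2.84% to 4.28% of the sum in WT and 48.8% to 53.1% in knockout libraries.

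**Figure D3:**
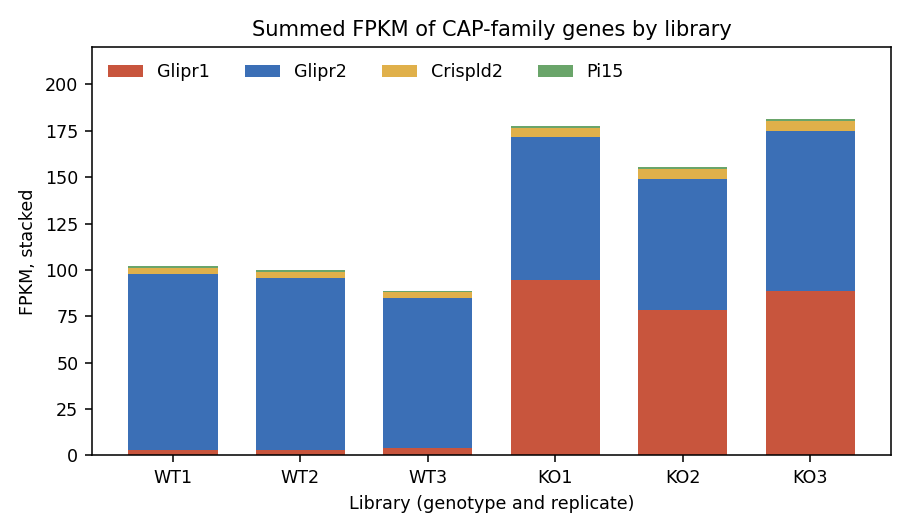
Stacked FPKM of Glipr1, Glipr2, Crispld2 and Pi15 in each of the 6 libraries (Pi16 and Crispld1, at most 0.05 FPKM, are not drawn). The sum is 88.6 to 102 FPKM in WT and 155 to 181 FPKM in knockout libraries, and the red Glipr1 segment makes the gap between the groups.

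The rest of the superfamily was nearly silent. The table held 9 other CAP genes, and none reached the test filter. Crisp1, Crisp3, Crisp4, Glipr1l1, Glipr1l2, Glipr1l3 and Clec18a, most of them known from the male reproductive tract, were listed at 0 in all 6 libraries. Crisp2 was at 0.02 FPKM in WT library 3 and in knockout library 1, and R3hdml at 0.05 FPKM in WT library 1 and 0.15 in knockout library 1, each from at most 12 estimated counts. Glipr1 stood at up to 94.42 FPKM while its close paralogues, Glipr1l1, Glipr1l2 and Glipr1l3, were at 0. Their lower coordinates lie 74.7, 97.9 and 156.3 kb from that of Glipr1.

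Around Glipr1, 25 other genes have their lower coordinate within 500 kb of its own, and 2 of them passed the expression filter. Both rose, where 10.4% of all tested genes did, and 2 genes are too few to read against that share. Phlda1, a pleckstrin-homology protein of stress and growth-factor responses, rose from 26.1 ± 2.28 to 60.1 ± 4.16 FPKM (log2 difference 1.17 ± 0.09, adjusted p = 0.000256). Its lower coordinate lies at -479.2 kb from that of Glipr1. Krr1 rose from 3.94 ± 0.44 to 7.56 ± 2.0 FPKM (0.77 ± 0.19, adjusted p = 0.0307). Its exons share 352 bases with those of Glipr1 on the opposite strand, and the part of Glipr1 reads in its level was not tested. The Krr1 call was made in 8 of 16 alternatives and was lost when any of the 3 WT libraries or knockout library 1 or 2 was left out (adjusted p up to 0.105) and with the replicate number as a block (adjusted p = 0.0734). That of Phlda1 was made in all 16.

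**Figure D4:**
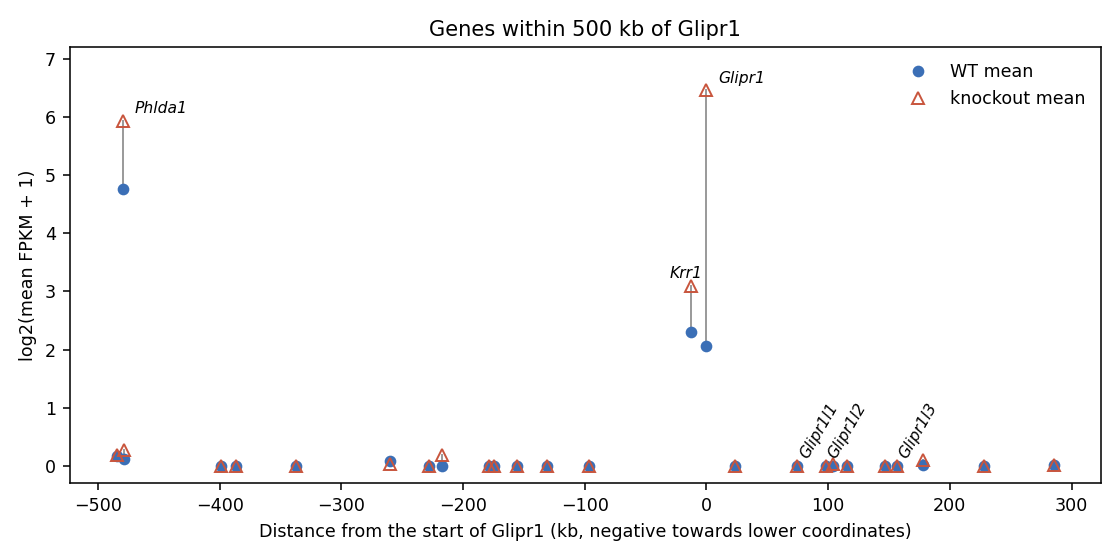
Mean level, as log2(mean FPKM + 1), in WT (blue circles) and knockout (red triangles) libraries of Glipr1 and the 25 genes within 500 kb of it. Distances in kb are between the lower coordinates of the genes, called starts on the axis, and lines join the means of a gene. Only Glipr1, Krr1 and Phlda1 lie clearly above 0, and Glipr1l1, Glipr1l2 and Glipr1l3 lie at 0.

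Near the other members calls ran in both directions, and they are not read as a result about these loci, since 19.6% of all tested genes were called. Around Glipr2, 18 of 48 neighbours were tested, 3 rose and 1 fell. The one that fell was the nearest tested neighbour on that side, Reck, a membrane-anchored inhibitor of matrix metalloproteinases (4.47 to 2.73 FPKM, adjusted p = 0.00465). Gne, a sialic acid synthesis enzyme on the other side, rose from 3.36 to 4.63 FPKM (adjusted p = 0.0348), a call that was lost without any 1 of the 6 libraries. The nearby Fam221b, Hint2 and Clta were not called. Around Crispld2, 12 of 26 were tested, 1 rose and 3 fell. Cotl1, an actin-binding protein, rose (15.1 to 24.8 FPKM, adjusted p = 0.00833), while the non-coding A330074K22Rik fell from 3.42 to 1.21 FPKM (adjusted p = 0.000966). Usp10, Klhl36, Zdhhc7 and 6430548M08Rik, which lie closer, were not called. Around Pi16, 14 of 50 were tested, 1 rose and 1 fell, the nearest on its right being Mtch1, a mitochondrial outer membrane protein (27.9 to 21.2 FPKM, adjusted p = 0.0156; not called without WT library 1 or 3 or knockout library 1). Gm10045, BC004004, Ppil1, Pim1 and Tbc1d22b were not called. No neighbour of Pi15 or Crispld1, which lie near each other on chromosome 1, passed the filter.

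The genes with the pattern most like that of each member were ranked by Euclidean distance over the 6 libraries, on log2(FPKM + 1) values centred per gene. For Glipr1 the nearest was Angptl7, a secreted angiopoietin-like protein, at a distance of 0.49. Angptl7 stood at 0.65, 0.74 and 0.9 FPKM in WT and at 28.22, 26.94 and 28.1 FPKM in knockout libraries. The mean of Rps4l (distance 0.61) was 0.303 FPKM in the WT group and 35.9 in the knockout group, and that of the transcription cofactor Eya2 (0.86) was 0.0767 and 13.4. The means of Col2a1, the collagen of cartilage (1.08), were 0.28 and 14.0 FPKM, and those of Rpl39l (1.09) were 0.0967 and 41.8. These genes were picked for their likeness to Glipr1, which fixes the direction and size of their differences, so no test is given. Rps4l and Rpl39l are close copies of the ribosomal protein genes Rps4x and Rpl39, and the part of shared reads in their counts was not tested. Nearest to Glipr2 were Glod4 (0.07), Laptm4a (0.08) and Sil1 (0.09). Nearest to Crispld2 were the transcription factor Atoh8 (0.05; 3.56 and 6.33 FPKM in WT and knockout libraries), the endoplasmic reticulum disulphide isomerase Pdia4 (0.08; 178 and 283) and the interleukin-10 receptor chain Il10ra (0.08; 1.63 and 3.15).

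Genes of the pathways in which the members are known were then read from the same fit, by lists set up for each member. Over all tested genes the median difference was 0.01, and 10.4% were called higher and 9.2% lower. The medians and counts below can be set against these values. Of 26 tested p53 targets, the list that goes with Glipr1, 13 rose and 1 fell, with a median difference of 0.30. Perp, a desmosomal effector of apoptosis, rose from 0.197 to 4.07 FPKM (2.08, adjusted p = 4.19e-05), the stress cytokine Gdf15 from 0.167 to 2.05 (1.37, adjusted p = 0.00067) and Pmaip1, the BH3 protein Noxa, from 0.763 to 3.4 (1.33, adjusted p = 0.000658). The cell cycle inhibitor Cdkn1a rose from 43.7 to 76.7 FPKM (0.79, adjusted p = 0.000725). Leaving out 1 library at a time gave 9 to 15 p53 targets called higher. On the log2(FPKM + 1) scale the differences of these 4 genes were all smaller than the 4.4 of Glipr1. That scale compresses changes near 0, where Perp and Gdf15 lay in WT libraries. As ratios of means, Perp rose 20.7-fold, Gdf15 12.3-fold, Pmaip1 4.45-fold and Cdkn1a 1.76-fold, beside 27.3-fold for Glipr1.

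**Figure D5:**
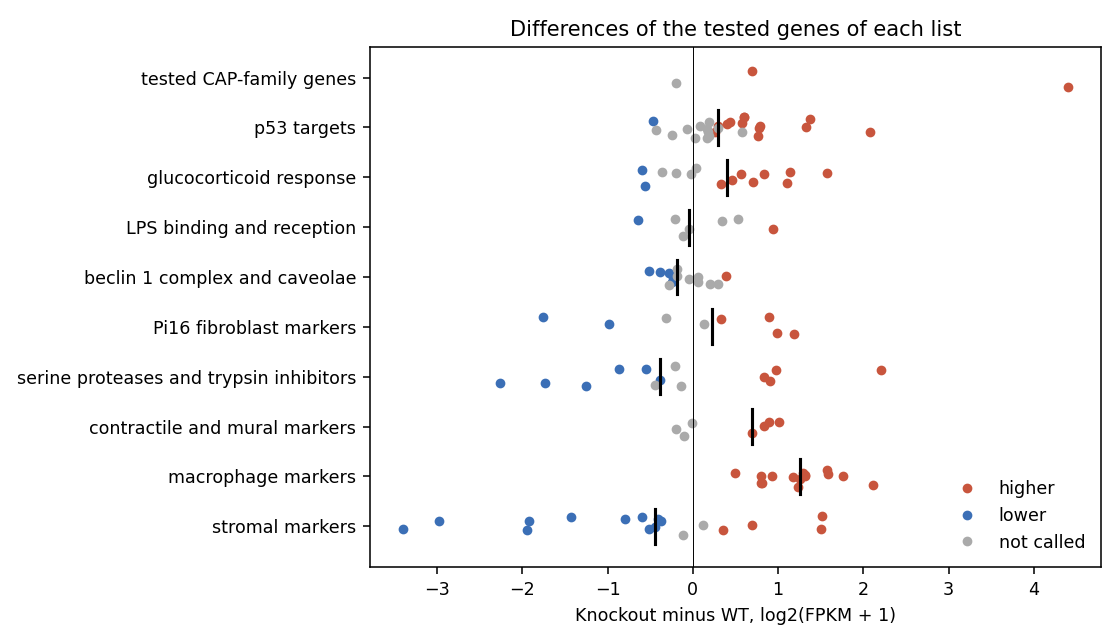
Log2(FPKM + 1) difference, knockout minus WT, of each tested gene of the lists (red called higher, blue called lower, grey not called; heights within a row are arbitrary), with the list median as a black bar except for the CAP-family genes. The p53 and glucocorticoid lists have medians of 0.30 and 0.40, the macrophage markers 1.26 and the stromal markers -0.45.

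The glucocorticoid response and LPS lists go with Crispld2. Of 14 tested glucocorticoid-responsive genes, 8 rose and 2 fell, with a median of 0.40. The largest differences were those of Lcn2, the siderophore-binding lipocalin (87.6 to 263 FPKM, 1.57, adjusted p = 0.000188), and of the metallothioneins Mt1 (56.9 to 128, 1.14, adjusted p = 0.000583) and Mt2 (179 to 386, 1.10, adjusted p = 0.00025). The phosphatase gene Dusp1 rose from 12.9 to 23.8 FPKM (0.84, adjusted p = 0.000388). The 2 that fell were Fkbp5, from 7.83 to 4.99 FPKM (-0.56, adjusted p = 0.00291), and Angptl4, from 14.9 to 9.41 (-0.6, adjusted p = 0.0132). The Fkbp5 call was made in all 16 alternatives, and that of Angptl4 was lost without WT library 3. Per1 and Klf9 were tested and not called. Lcn2 and the metallothioneins are also known to respond to inflammatory signals and, for the metallothioneins, to metals. Of 7 tested genes of LPS binding and reception, 1 rose and 1 fell (median -0.05). Cd14, the LPS co-receptor that macrophages also express, rose from 35.6 to 69.2 FPKM (0.94, adjusted p = 0.000611), and Lbp, the secreted LPS-binding protein, fell from 3.41 to 1.79 (-0.65, adjusted p = 0.00564). With the replicate number as a block, 2 genes of this list rose, as they did without a block when no filter was used or with edgeR on estimated counts. In the limma fit with the 1 FPKM filter and no block, the receptor Tlr4 was not called (1.45 ± 0.533 and 2.59 ± 1.04 FPKM, adjusted p = 0.219).

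For Glipr2, 14 genes of the beclin 1 complex and of caveolae were tested, of which 5 fell and 1 rose (median -0.19). The caveolar coat gene Cavin2 fell from 38.8 to 26.9 FPKM (-0.52, adjusted p = 0.0115). Smaller differences were those of Cavin1 (133 to 101, adjusted p = 0.0201), of the beclin 1 partner Uvrag (6.29 to 5.01, adjusted p = 0.0282) and, upwards, of Nrbf2 (10.1 to 13.5, adjusted p = 0.0369). Only the Cavin2 call was kept under all 16 alternatives. The number of genes that fell was 1 when any of the WT libraries, or knockout library 1 or 2, was left out. With the replicate number as a block, 2 fell and none rose, and Uvrag (adjusted p = 0.07) and Nrbf2 (adjusted p = 0.0843) were no longer called.

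For Pi16 and Pi15, whose own levels were too low to test, the lists were mixed in direction. Of 8 tested markers of the Pi16 fibroblast population, 4 rose and 2 fell (median 0.23). Cd248, a stromal membrane glycoprotein, fell from 150 to 43.4 FPKM (-1.76, adjusted p = 2.94e-05), and the microfibril gene Mfap5 fell from 41.5 to 20.5 (-0.98, adjusted p = 0.000642). Cd34, a sialomucin of progenitor and endothelial cells, rose from 3.31 to 8.81 FPKM (1.19, adjusted p = 0.000131), as did the semaphorin Sema3c, from 8.62 to 18.5 (0.99, adjusted p = 0.00833). Dpp4, a defining marker of that population, was at 0.00667 and 0.0233 FPKM and not tested. Of the markers below the filter, only Dpt (0.783 to 0.17 FPKM) and Col15a1 (0.487 to 0.0267) had ranges that did not overlap. With no filter, and with edgeR on estimated counts, 4 genes of the list rose and 4 fell. The summed level of all 15 markers was 262 to 287 FPKM in WT and 175 to 184 FPKM in knockout libraries. Of 13 tested serine proteases and inhibitors, 4 rose and 6 fell (median -0.39). The coagulation inhibitor Tfpi fell from 9.57 to 1.2 FPKM (-2.26, adjusted p = 0.000117), the leukocyte protease inhibitor Slpi from 70.7 to 20.6 (-1.74, adjusted p = 0.000146) and the plasminogen activator Plat from 13.3 to 5.04 (-1.25, adjusted p = 0.000131), while the protease-like Prss35 rose from 0.977 to 8.08 (2.21, adjusted p = 7.99e-05). The macrophage and stromal markers given above differed in the same libraries, and their part in the counts of every list was not tested.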

How the data were processed

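Polyadenylated RNA of 6 LPS-treated mouse cultures was sequenced as paired reads of a dUTP library, per the labels' protocols. The authors deposited FPKM values and estimated counts for each gene and library. Per the submitters' processing notes, cutadapt 1.9, HISAT2 2.0.4, StringTie 1.3.4d and GRCm38 were used. How counts were made is not given in the sources used here, nor are the annotation release, strand use and filters. Of the deposited estimated counts up to 16, 44.4% are multiples of 4 and the rest are not. This was read as about 4 counts per fragment, a scale that was not tested, so the numbers of fragments are rough estimates.

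The members and lists were chosen with earlier results of these data known. Members therefore get no p-value. The fit was limma 3.58.1 in R 4.3.3 on log2(FPKM + 1), with genes of at least 1 FPKM in at least 3 libraries, a mean-dependent variance prior, two-sided tests and Benjamini-Hochberg adjustment over all tested genes at 0.05. Alternatives were a pseudocount of 0.1, no filter, a filter of 5 FPKM, TMM-rescaled FPKM, edgeR 4.0.16 and DESeq2 1.42.0 on rounded estimated counts, replicate blocks and leaving out each library. Named genes were all members and other CAP genes, up to 4 called genes of each list with the largest difference, defining macrophage and stromal markers, up to 3 tested neighbours on each side and the 5 (Glipr1) or 3 most like genes. A gene that this rule names is not reported here. Transcript overlaps came from GENCODE M21. Tlr4, Dpp4, Dpt, Col15a1, Fkbp5, Angptl4, Per1, Klf9, Nt5e, Nes, Twist1 and Acp5 were named after their values were seen.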

Additional observations from a re-analysis of the deposited data

How the results depend on the processing

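The members were chosen on this contrast, so their values across the 16 alternatives are a description. The difference of Glipr1 ran from 4.34 to 4.76, that of Crispld2 from 0.63 to 0.87 and that of Glipr2 from -0.27 to -0.13, with the upper Glipr1 and Crispld2 values from a pseudocount of 0.1 and from estimated counts. Over all genes, a filter of 5 FPKM, which tests fewer genes, gave 817 higher against 1264. Leaving out 1 library gave 868 to 1685 higher and 721 to 1314 lower, the lowest count of lower genes without WT replicate 1, against 1117. The labels conflict on whether a replicate number marks a shared day. The deviations of same-numbered libraries correlated weakly (0.02, 0.168 and 0.096), and those of differently numbered libraries correlated at -0.171 to 0.081. Whether the numbers pair the libraries cannot be told from these values. With a replicate block limma called 1106 higher and 980 lower, and edgeR 1249 and 1155, and among named genes the limma block ended the calls of Krr1, Uvrag and Nrbf2. Depth limits Pi16 and Crispld1, which no alternative called.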

Other observations

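Markers of other cell types stood as follows in the libraries in which Glipr1 was measured. Of 12 contractile and mural markers, 7 were tested, 4 rose and none fell, while the fits on estimated counts, which test more genes, called 1 lower in each case. The summed level of the 12 was 1558 to 1699 FPKM in WT and 2792 to 3392 FPKM in knockout libraries. Of 10 granulocyte markers, 3 were tested, 2 rose and 1 fell, with sums of 11 to 11.7 and 12.2 to 17.0 FPKM. Of 7 osteoclast markers, 3 were tested and 1 fell, Acp5 (2.53 to 1.68 FPKM, adjusted p = 0.0478), a call that 2 of 15 alternatives made. No lymphoid or endothelial marker reached the test filter, and 7 of 10 lymphoid markers were at 0 in all libraries. Endothelial sums were 1.7 to 2.33 FPKM in WT and 0.51 to 0.83 in knockout libraries.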
